A study of Homo sapiens with 36 samples.

Results

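The genes described here are the FGF, PDGF and VEGF signaling genes FGF2, FGF18, FGFR1, FGFR2, FGFR3, PDGFA, PDGFRA, PDGFRB, VEGFA and VEGFC. They were chosen by name, with earlier results of these data known, so shares over all probe sets beside their counts are description only. Every probe set that the array annotation gives to 1 of these 10 genes was taken, which makes 36 of the 22215 probe sets tested. FGFR2 has 10 of them, FGFR1 6, FGF18 5, VEGFA 4, PDGFRA 3, FGF2, FGFR3 and PDGFA 2 each, and PDGFRB and VEGFC 1 each. The RNA came from U2OS ER-HA-E2F1 cells, a human osteosarcoma line with a stably introduced fusion of the transcription factor E2F1 to the estrogen receptor, made by retroviral infection and puromycin selection. The fusion enters the nucleus when 4-hydroxytamoxifen (OHT) is added. Cells received 1 of 4 siRNAs: the negative controls of Dharmacon and of Sigma-Aldrich, and siRNAs to NFYB from Ambion and from Dharmacon. NFYB encodes the B subunit of the CCAAT-binding factor NF-Y. After 18 h they were starved of serum for 24 h and then held in serum-free medium with 80 nM OHT for 0, 4 or 8 h. Each of the 12 conditions has 3 biological replicates, so each arm (control siRNA or NFYB siRNA) has 6 arrays at each time and the series has 36. Every array of 4 h and 8 h had OHT and more hours without serum, so E2F1 activation, OHT itself and longer starvation cannot be told apart.

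Fibroblast growth factors (FGFs), platelet-derived growth factors (PDGFs) and vascular endothelial growth factors (VEGFs) are secreted ligands that bring receptor tyrosine kinases together in pairs on the cell surface. The paired receptors phosphorylate each other, and adaptor proteins then pass the signal to Ras and the MAP kinases, to phosphoinositide 3-kinase and to phospholipase C. FGFs need heparan sulfate on the cell surface to bind their receptors well. In bone, FGF receptors govern the growth of cartilage and the activity of osteoblasts, PDGFs drive the division of mesenchymal cells, and VEGFs bring in blood and lymphatic vessels.

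With E2F1 activation 8 of the 10 genes rose and 1 fell, as read from the lead probe set, the brightest over all arrays. FGFR3 rose most, 21.4-fold at 8 h in control siRNA cells, followed by VEGFC at 7.91-fold and FGFR2 at 4.93-fold. VEGFA, PDGFA and FGF2 were 2.03-fold to 2.23-fold higher, FGFR1 1.61-fold and PDGFRA 1.38-fold. PDGFRB was 2.65-fold lower, and FGF18, dim in every probe set, was not called. Over the 11963 genes that have a probe set of their own, the lead probe set was called higher at 8 h for 21.1% and lower for 34.3%. With the siRNAs of each arm pooled, NFYB knockdown moved none of the 10 lead probe sets past the threshold at any time. Some other settings, mostly fits with 1 siRNA alone, called a few of them, as given at the end.

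Promoter sequence of the 3 genes that rose most and of the 1 that fell is shown because they moved in opposite directions. RefSeq windows (GRCh38.p14) from 250 bases before to 50 after a transcription start were matched by symbol for 8 of the 10 genes, with 16 windows in all since some have several starts. FGFR1 and VEGFA were not matched. Below are the 250 bases before the outermost start, read 5′ to 3′ on the gene's strand, with capitals for any CCAAT, the pentamer that NF-Y binds, on either strand (ATTGG on the other). FGFR3 lies at chr4:1793043-1793292 on the plus strand, VEGFC at chr4:176792923-176793172, FGFR2 at chr10:121598445-121598694 and PDGFRB at chr5:150155846-150156095, these 3 on the minus strand.
FGFR3: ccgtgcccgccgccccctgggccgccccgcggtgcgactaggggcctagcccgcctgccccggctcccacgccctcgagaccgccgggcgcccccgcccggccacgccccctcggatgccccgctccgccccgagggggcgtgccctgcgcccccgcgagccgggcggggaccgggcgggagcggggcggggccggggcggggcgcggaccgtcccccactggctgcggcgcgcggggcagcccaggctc
VEGFC: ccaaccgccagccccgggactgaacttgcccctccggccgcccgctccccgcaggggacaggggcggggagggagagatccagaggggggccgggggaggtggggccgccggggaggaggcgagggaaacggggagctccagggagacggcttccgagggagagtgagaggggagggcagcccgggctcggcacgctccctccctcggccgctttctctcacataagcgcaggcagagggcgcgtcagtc
FGFR2: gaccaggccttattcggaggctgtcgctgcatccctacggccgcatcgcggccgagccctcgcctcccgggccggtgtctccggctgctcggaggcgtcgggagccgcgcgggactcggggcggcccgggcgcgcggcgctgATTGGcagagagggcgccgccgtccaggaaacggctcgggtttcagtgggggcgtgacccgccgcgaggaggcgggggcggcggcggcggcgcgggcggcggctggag
PDGFRB: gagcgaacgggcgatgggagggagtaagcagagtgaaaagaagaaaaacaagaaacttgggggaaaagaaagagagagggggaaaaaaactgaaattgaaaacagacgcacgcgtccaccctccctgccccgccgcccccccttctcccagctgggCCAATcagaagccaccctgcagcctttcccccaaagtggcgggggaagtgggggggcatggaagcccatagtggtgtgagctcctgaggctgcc
The FGFR3 and VEGFC windows hold no CCAAT, FGFR2 holds 1 that begins 108 bases before the start, and PDGFRB 1 that begins 94 bases before it. Over the 16 windows, 6 hold CCAAT, from FGFR2, PDGFA, PDGFRA and PDGFRB, against 34.6% of all 35116 windows. The E2F motif, written as TTNNCGC with C or G at each N, was found in 2 of 16 windows, both of PDGFA, against 13% of all. The letters ACGTG, the core that hypoxia-inducible factors bind, were in 1 of 16, of FGFR2, against 21.4%. Both strands were searched, and these matches describe the letters only.

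Signals are MAS5 intensities on a linear scale, which the authors set to a common trimmed mean of 500 per array. Array medians ran from 101 to 120.4. A change is the difference of mean log2 signals, tested with limma, and called at a Benjamini-Hochberg adjusted p under 0.05 over all 22215 probe sets. The median probe set fell by 0.10 on the log2 scale in control siRNA cells at 8 h and by 0.15 in NFYB siRNA cells, so a member near that size moved little against the array as a whole. The lead NFYB probe set ran from 579 to 717 in control siRNA cells at 8 h and from 74.1 to 187 in NFYB siRNA cells. CCNE1, a cyclin gene that E2F1 is known to activate, rose 7.46-fold at 8 h. Of 7 osteoblast markers measured, 4 lay above the 40th percentile of mean signal, while RUNX2, IBSP and COL1A2 lay below it. No endothelial marker (5 measured) and no leukocyte marker (4) lay above it, nor did any of 4 epithelial markers but EPCAM. Their summed signals were 49.6 to 173 for endothelium and 25.8 to 99.5 for leukocytes over the 36 arrays.

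**Figure D1:**
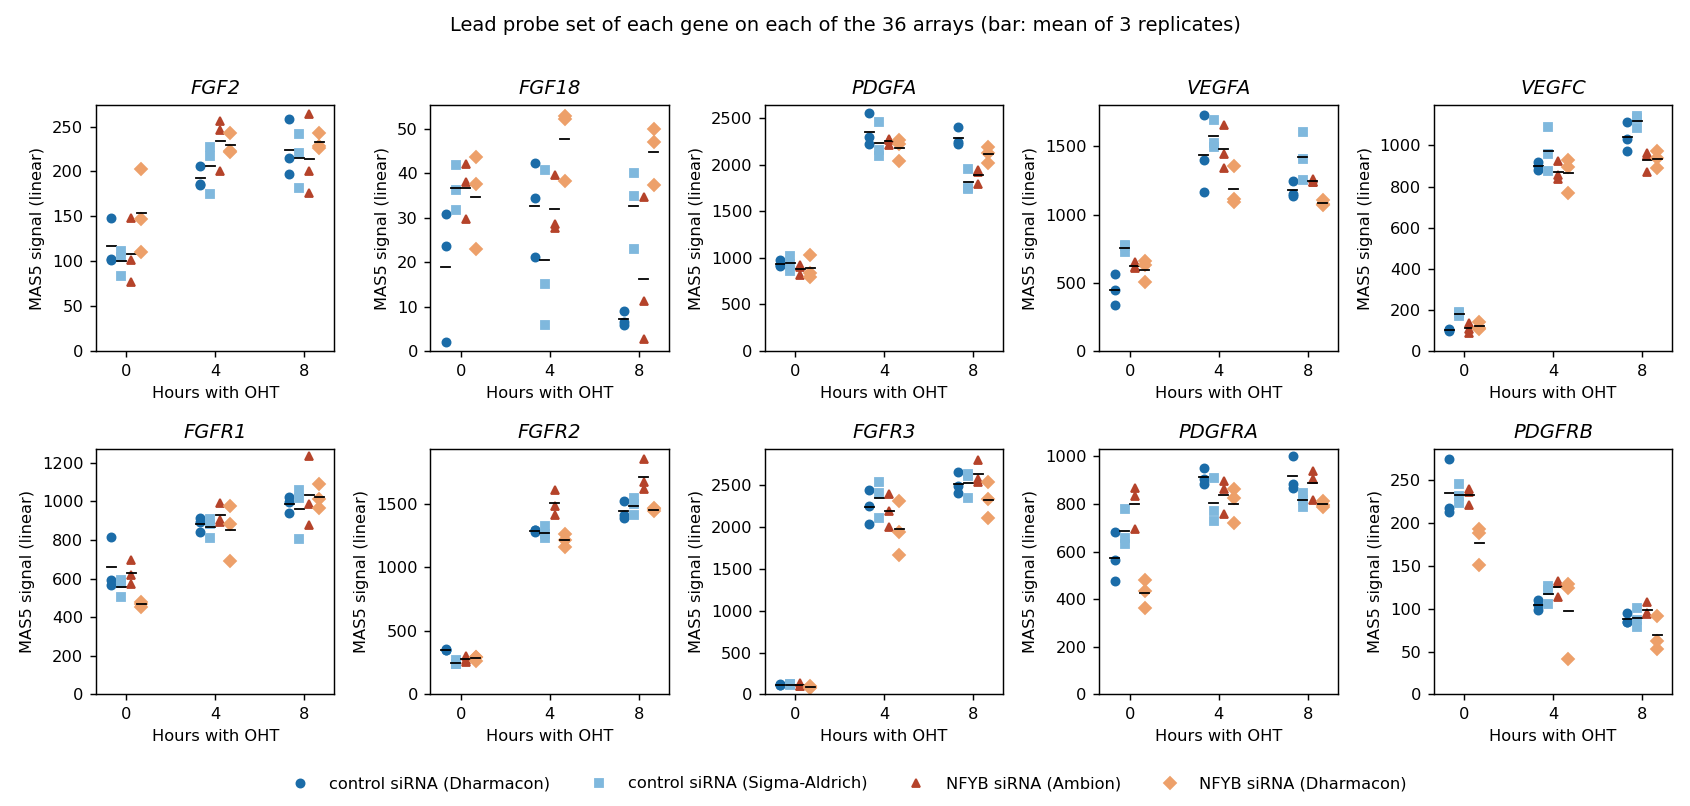
MAS5 signal (linear, y axis from 0) of each gene's lead probe set against hours with OHT, 1 point per array, coloured by siRNA, with a bar at the mean of 3 replicates. FGFR3 moved from 81.1 to 134 at 0 h to 2110.2 to 2799.6 at 8 h over both arms, and PDGFRB moved the other way.

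The ligand FGF2, a heparin-binding growth factor for mesenchymal and endothelial cells, was measured at a lowest, median and highest signal of 83.5, 104 and 148 in control siRNA cells at 0 h. At 4 h these were 175, 196 and 228, and at 8 h 182, 218 and 259. Every control siRNA array with OHT was above every one without. The log2 change was 0.89 (SE 0.15) at 4 h and 1.02 (SE 0.15, adjusted p = 5.33e-07) at 8 h. In NFYB siRNA cells the signals were 76.6, 129 and 203 at 0 h and 176, 227 and 264 at 8 h, where the groups overlapped, with a log2 change of 0.83 (adjusted p = 2.20e-05). The second FGF2 probe set, 204422_s_at, was called in control siRNA cells at 8 h only, at 1.02, and read 0.27 in NFYB siRNA cells at 8 h (adjusted p = 0.460).

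FGF18, a ligand of FGFR3 in growing cartilage and bone, had no probe set above the 40th percentile of mean signal. Its lead probe set read 2.10, 31.3 and 41.8 in control siRNA cells at 0 h and 5.77, 16.006 and 40.015 at 8 h. The groups overlapped, and the log2 change of -0.46 had a 95% interval from -1.77 to 0.85. Without the lowest 0 h array, replicate 1 of the Dharmacon control, it was -1.12 (adjusted p = 0.115). The change at 8 h in NFYB siRNA cells was -0.72, and with the Ambion siRNA alone -1.85, which was called (adjusted p = 0.0421). A dimmer FGF18 probe set, 206987_x_at, read 1.16, 9.52 and 34.2 in NFYB siRNA cells at 0 h and 36.2, 41.7 and 56.2 at 4 h, a log2 change of 2.42 (adjusted p = 0.000802). In control siRNA cells it read 4.48, 12.8 and 19.0 at 4 h, which made it the single member probe set called between the arms, by 2.0 at 4 h (adjusted p = 0.0473). That call was lost without the trend (adjusted p = 0.0634), with siRNA as a random block (0.182), with the replicate block (0.0551), with the study's own test on log2 signal (0.0695), with either NFYB siRNA or the Dharmacon control alone (0.0708 to 0.101) and without any 1 replicate number (0.149 to 0.281). It was kept with 16 added to each signal (adjusted p = 0.00250), with quantile normalization (0.0395) and with siRNA by time as 12 groups (0.0207). The study's own test on linear signal (0.0102) and the Sigma-Aldrich control alone (0.0425) kept it too. The call held in 12 of 36 fits that left out 1 array each, and the probe set is too dim to be among the upper 60%. The other 4 FGF18 probe sets were called in none of the E2F1 responses of the pooled arms, and whether the probe sets of this gene differ was not tested.

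PDGFA, the A chain of PDGF and a ligand of PDGFRA, read 863, 933 and 1021.5 in control siRNA cells at 0 h. It rose to 2091, 2260.3 and 2552 at 4 h and stood at 1739.7, 2092.6 and 2404.9 at 8 h, with no overlap of either time with 0 h. The log2 change was 1.29 (SE 0.07) at 4 h and 1.12 (SE 0.07, adjusted p = 9.83e-16) at 8 h. NFYB siRNA cells gave 1.33 and 1.18. The other PDGFA probe set, 216867_s_at, rose by 1.77 at 4 h and 1.25 at 8 h in control siRNA cells, and its fall of 0.52 from 4 h to 8 h was called (-0.52, adjusted p = 0.00249), while that of the lead probe set was not (-0.17, adjusted p = 0.119).

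VEGFA, which drives the sprouting of blood vessels and is a known target of hypoxia-inducible factors, read 335, 648 and 778 in control siRNA cells at 0 h. At 4 h it read 1167.8, 1512.1 and 1732.4, and at 8 h 1134.4, 1251.7 and 1603.7. All arrays with OHT were above all without, by a log2 change of 1.37 (SE 0.14) at 4 h and 1.16 (SE 0.14, adjusted p = 6.81e-09) at 8 h. In NFYB siRNA cells it rose by 1.12 and 0.93. The other 3 VEGFA probe sets rose at 8 h in control siRNA cells by 0.73 to 0.89, and in NFYB siRNA cells 211527_x_at was the 1 of 4 not called (0.44, adjusted p = 0.155).

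VEGFC, the ligand of the lymphatic receptor FLT4, read 95.7, 138 and 190.3 in control siRNA cells at 0 h, 877, 911 and 1091.2 at 4 h and 973, 1101.4 and 1143.2 at 8 h. In NFYB siRNA cells it went from 87.3, 111 and 143 to 870, 946 and 974 at 8 h. The lowest array with OHT in either arm was far above the highest without. The log2 change at 8 h was 2.98 (SE 0.13, adjusted p = 2.66e-21) in control and 3.03 in NFYB siRNA cells.

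Among the receptors, FGFR1, the main FGF receptor of mesenchymal cells, read 505, 583 and 816 in control siRNA cells at 0 h and 805, 1007.4 and 1059.6 at 8 h. A single 0 h array, at 816, reached into the range of the arrays at 8 h. The log2 change was 0.54 (SE 0.10) at 4 h and 0.69 (SE 0.10, adjusted p = 5.39e-07) at 8 h, and 0.71 and 0.92 in NFYB siRNA cells. All 6 FGFR1 probe sets had a positive change in both arms at both times, and 222164_at had the largest, 1.57 at 8 h in control siRNA cells. The probe sets 207822_at at 8 h (0.35, adjusted p = 0.102), 207937_x_at at 4 h (0.37, adjusted p = 0.111) and 215404_x_at at 4 h were not called in control siRNA cells.

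FGFR2, whose splice forms serve epithelial and mesenchymal tissues, read 238, 310.2 and 354 in control siRNA cells at 0 h, 1230.3, 1286.1 and 1326.8 at 4 h and 1387.4, 1454.7 and 1546 at 8 h. No array with OHT came near those without. The log2 change was 2.11 (SE 0.09) at 4 h and 2.30 (SE 0.09, adjusted p = 1.50e-22) at 8 h, and 2.27 and 2.49 in NFYB siRNA cells. The other 3 FGFR2 probe sets above the 40th percentile, 203639_s_at, 208228_s_at and 211401_s_at, rose by 2.96 to 3.43 at 8 h in control siRNA cells. Of the 6 dim ones 208225_at and 208234_x_at were called higher, 4 were not called, and 208229_at ran the other way (-0.40, adjusted p = 0.198), with a call of -0.64 in NFYB siRNA cells at 4 h (adjusted p = 0.0456).

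FGFR3, which restrains cartilage growth in bone, read 108, 119 and 126 in control siRNA cells at 0 h, 2031.7, 2330.8 and 2533 at 4 h and 2342.6, 2549.8 and 2653.9 at 8 h. In NFYB siRNA cells it went from 81.1, 98.0 and 134 to 1661.9, 2097.9 and 2395.6 at 4 h and 2110.2, 2538.8 and 2799.6 at 8 h. The log2 change in control siRNA cells was 4.28 (SE 0.09) at 4 h and 4.42 (SE 0.09, adjusted p = 3.68e-31) at 8 h, so nearly all of it was reached by 4 h. The gain from 4 h to 8 h was called in NFYB siRNA cells (0.26, adjusted p = 0.0456) and not in control siRNA cells (0.14, adjusted p = 0.339). The second FGFR3 probe set, 204380_s_at, is dim and was called in control siRNA cells only, at 2.19 and 1.71. Whether the arms differ there was tested only at 8 h, and that difference was not called.

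PDGFRA, the receptor that binds all PDGF chains but the D chain, read 478, 644 and 777 in control siRNA cells at 0 h and 786, 856 and 1000.9 at 8 h. The log2 change was 0.45 (SE 0.14, adjusted p = 0.00914) at 4 h and 0.47 (SE 0.14, adjusted p = 0.00518) at 8 h, and 0.49 and 0.54 in NFYB siRNA cells, where the arrays overlapped at both times. These calls were lost in some fits with 1 siRNA of an arm alone, which hold fewer arrays. With the Sigma-Aldrich control alone the 4 h value was 0.22 (adjusted p = 0.143) and the 8 h value 0.25 (adjusted p = 0.0744). With the Ambion NFYB siRNA alone they were 0.07 (adjusted p = 0.706) and 0.15 (adjusted p = 0.308). Whether the response differs between the siRNAs of an arm was not tested. The study's own test on log2 signal made neither call in NFYB siRNA cells (adjusted p = 0.158 at 4 h and 0.108 at 8 h), nor did it on linear signal (adjusted p = 0.152 and 0.0946). Without the arrays of replicate 3 the 4 h call in control siRNA cells was lost as well (0.44, adjusted p = 0.0699), and without replicate 2 that in NFYB siRNA cells (0.44, adjusted p = 0.0846). The PDGFRA probe set 215305_at rose by 0.92 at 8 h in control siRNA cells and 0.95 in NFYB siRNA cells.

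PDGFRB, the receptor for the B and D chains that marks pericytes and fibroblasts, is the member that fell. It read 213, 227 and 275 in control siRNA cells at 0 h, 98.5, 107 and 127 at 4 h and 78.5, 86.0 and 101 at 8 h. In NFYB siRNA cells it went from 151, 207 and 239.9 to 53.4, 92.6 and 108 at 8 h. In both arms all arrays with OHT were below all without. The log2 change was -1.08 (SE 0.20) at 4 h and -1.40 (SE 0.20, adjusted p = 1.24e-07) at 8 h in control siRNA cells, and -0.96 and -1.31 in NFYB siRNA cells.

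**Figure D2:**
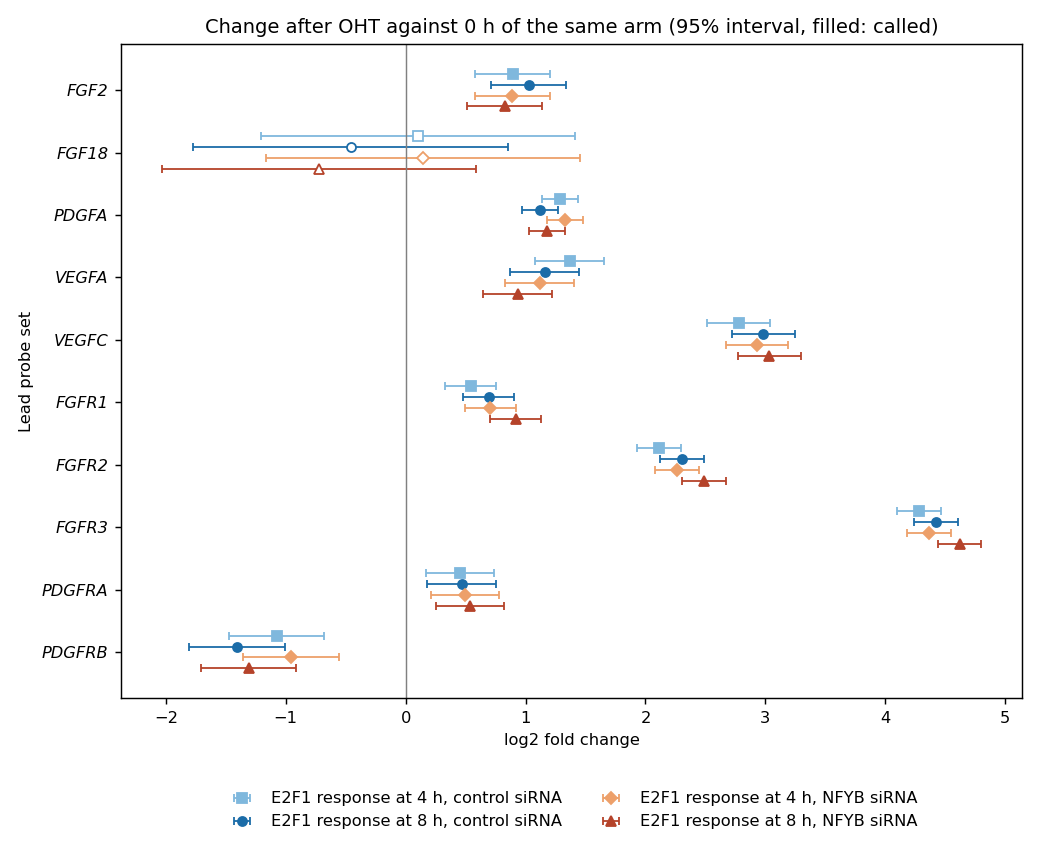
log2 fold change (x axis) of the lead probe set of each gene (y axis) at 4 h and 8 h against 0 h of the same arm, with 95% intervals from limma and filled symbols for called changes. At 8 h in control siRNA cells the changes ran from -1.40 for PDGFRB to 4.42 for FGFR3, and the intervals of the arms overlap for every gene.

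Counted by probe set in control siRNA cells, 23 of 36 were called at 4 h (22 higher, 1 lower), where 39.3% of all probe sets were called, and 25 at 8 h (24 higher, 1 lower), where 49.9% were. In NFYB siRNA cells 25 were called at 4 h (23 higher, 2 lower) against 36.6% of all, and 24 at 8 h (23 higher, 1 lower) against 47.9%. The median change of the 36 at 8 h was 0.93 in control and 0.87 in NFYB siRNA cells, on arrays whose median probe set fell. Of the 23 member probe sets above the 40th percentile of mean signal 22 were called at 8 h in control siRNA cells, where 72.2% of all probe sets above it were, and of the 13 below it 3, where 16.4% of all were. From 4 h to 8 h, 1 member probe set was called in control siRNA cells (17.2% of all) and 2 in NFYB siRNA cells (16.5%), the PDGFA and FGFR3 probe sets given above and VEGFA 212171_x_at, which fell by 0.43.

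**Figure D3:**
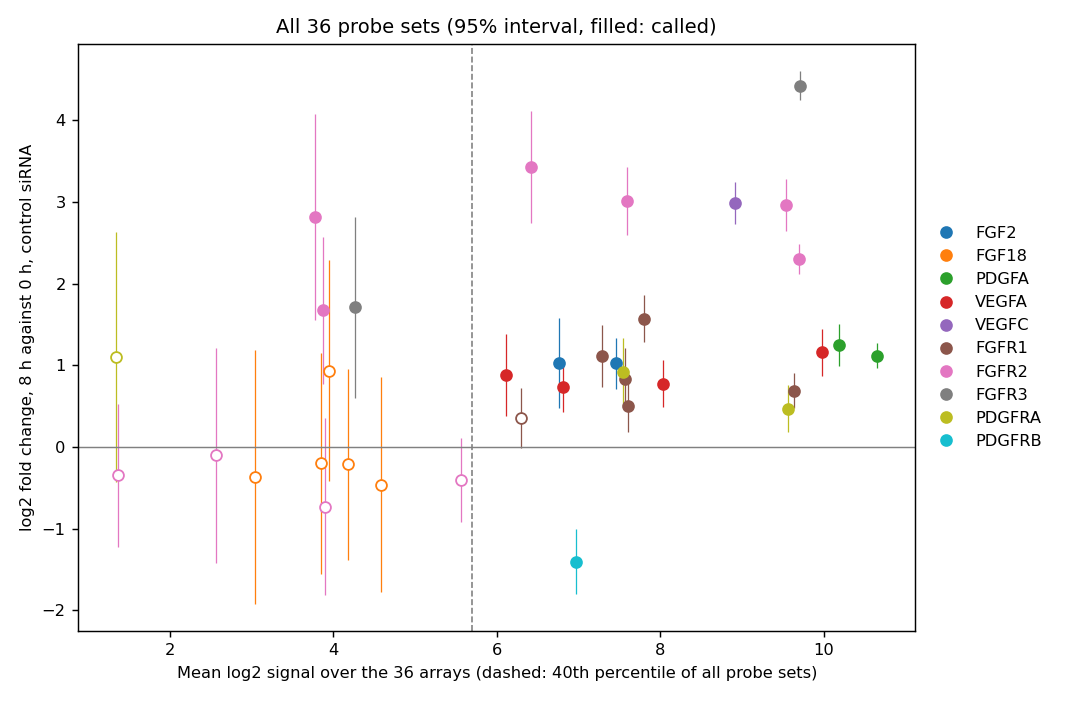
log2 fold change at 8 h in control siRNA cells (y axis, 95% interval) of all 36 probe sets against their mean log2 signal over 36 arrays (x axis), coloured by gene and filled where called. To the right of the dashed line, the 40th percentile, 22 of 23 are called. To its left, 3 of 13 are.

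With NFYB knockdown and the siRNAs of each arm pooled, the lead probe sets of the 10 genes were not called at any time, and the intervals give the sizes that these arrays allow. At 0 h no member probe set was called between the arms (3.58% of all probe sets were), at 4 h 1 (2.93%) and at 8 h none (4.65%). With limma and no adjustment, 7 member probe sets had a p under 0.05 at 0 h (15.4% of all probe sets did), 4 at 4 h (14.6%) and 0 at 8 h (17% of all). The study's own test, after adjustment, called 0 at 0 h and at 8 h, and at 4 h 0 on log2 and 1 on linear signal. The 1 call at 4 h was that of FGF18 206987_x_at, which several alternatives did not keep, as given above. At 8 h the lead probe set was called higher with knockdown for 2.71% of all genes and lower for 2.57%. The 95% interval of the change at 8 h was -0.21 to 0.15 for FGFR3, -0.07 to 0.29 for FGFR2, -0.18 to 0.12 for PDGFA, -0.47 to 0.05 for VEGFC and -0.44 to 0.14 for VEGFA. For FGF18 it ran from -0.81 to 1.81, which allows a large change in either direction. The 8 h E2F1 response differed between the arms for 0 of 36 probe sets (0.203% of all), with 1 member at an unadjusted p under 0.05 against 7.08% of all. For FGFR3 that difference was 0.20 (95% interval -0.06 to 0.46), and for PDGFRB 0.09 (-0.47 to 0.66).

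**Figure D4:**
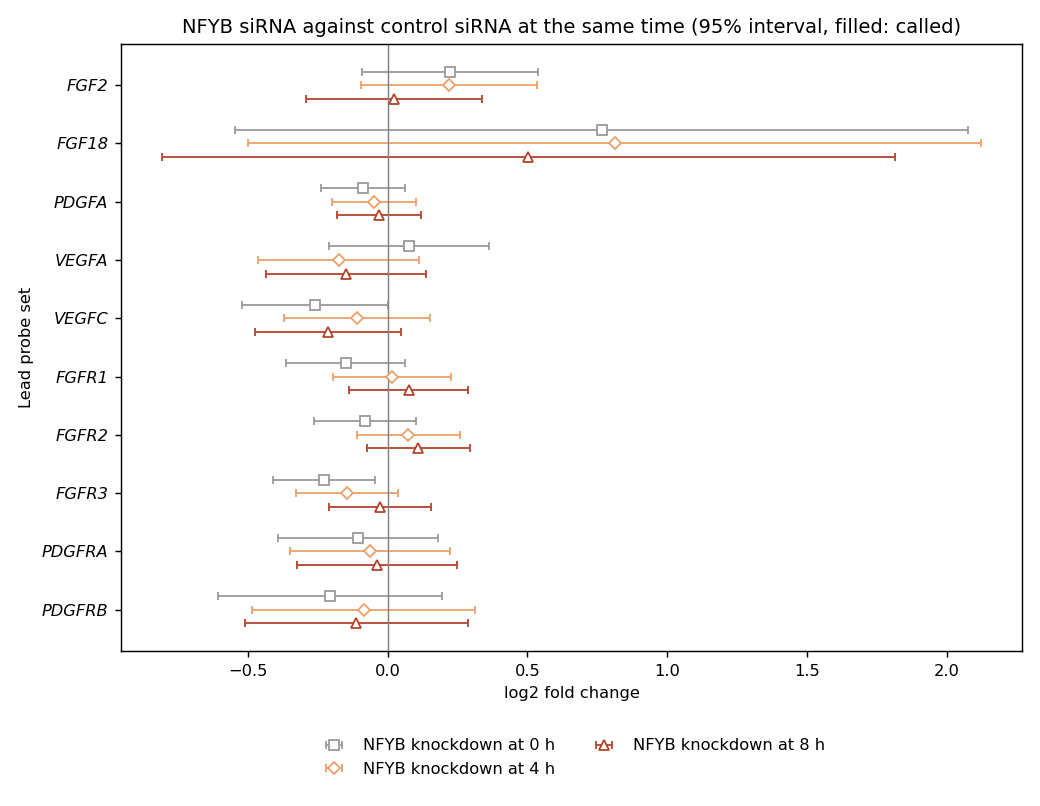
log2 fold change of NFYB siRNA over control siRNA (x axis) for the lead probe set of each gene (y axis) at 0, 4 and 8 h, with 95% intervals from limma. No symbol is filled, since no lead probe set was called, and FGF18 has the widest intervals.

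The siRNAs of an arm differed from each other in several members, at shares of 36 near or below those of all probe sets when taken over all times. At 0 h VEGFA read 335, 449 and 568 with the Dharmacon control and 727, 770.0 and 778 with the Sigma-Aldrich control, a log2 difference of 0.78 (adjusted p = 6.99e-05). VEGFC read 95.7, 104 and 107 with the first and 169.5, 187 and 190.3 with the second, a difference of 0.83 (adjusted p = 2.31e-06). FGFR2 went the other way, at 348, 350.2 and 354 against 238, 242 and 273 (-0.49, adjusted p = 6.83e-06). None of these sets of 3 arrays overlapped, but the share of all probe sets so separated was not computed. As the mean over all probe sets of the gene, the difference was smaller for VEGFA (0.62) and for FGFR2 (-0.16). In all, 7 of 36 member probe sets were called between the control siRNAs at 0 h (13.9% of all probe sets) and 9 over all times (25.6%).

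The siRNAs against NFYB differed in PDGFRA before OHT. At 0 h it read 697, 835 and 868 with the Ambion siRNA and 362, 437 and 479 with the Dharmacon siRNA, a log2 difference of -0.91 (adjusted p = 1.28e-06), the second minus the first. The control siRNA arrays, at 478 to 777, lay between and overlapped both. At 8 h the NFYB siRNAs read 817 to 939 and 788 to 811, so most of the gap was gone. Set against both controls at 0 h, PDGFRA was higher with the Ambion siRNA (0.35, adjusted p = 0.0241) and lower with the Dharmacon siRNA (-0.56, adjusted p = 0.000105), and the pooled arm read -0.11 (adjusted p = 0.799). Between the NFYB siRNAs at 0 h FGFR1 was lower with the Dharmacon siRNA (-0.43, adjusted p = 0.0293). As means over all probe sets of the gene, these 0 h differences were smaller, -0.43 for PDGFRA and -0.11 for FGFR1. At 0 h 2 of 36 member probe sets were called between the NFYB siRNAs (8.28% of all) and over all times 4 (17.1%), the lead probe sets of FGFR2 (-0.17), FGFR3 (-0.22), PDGFRA (-0.38) and PDGFRB (-0.49). As the mean over its 3 probe sets the PDGFRA difference over all times had the opposite sign (0.087). NFYB itself was lower with the Dharmacon siRNA over all times, by a log2 difference of -0.59 (adjusted p = 0.000210), but not called between them at 0 h (-0.13, adjusted p = 0.802), and its part in these differences was not tested. The E2F1 response of FGFR3 was 4.41 to 4.69 at 8 h with each siRNA alone, while that of VEGFC was 3.35 with the Dharmacon control and 2.62 with the Sigma-Aldrich control.

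Other genes of these pathways moved in both directions with E2F1 at 8 h in control siRNA cells, each read from its lead probe set. The counts of the lists below stand beside 21.1% called higher and 34.3% called lower over the lead probe sets of all genes. Of 17 further FGF ligands measured, 3 were called higher, 2 lower and 12 neither, with a median log2 change of 0.14 against -0.16 over the lead probe sets of all genes. In NFYB siRNA cells the median was -0.27 against -0.18, so the direction of that contrast did not hold in both arms. Only 5 of the 17 lay above the 40th percentile of mean signal. FGF4, a ligand of early embryos, rose from 24.5 to 61.5 at 0 h to 1743.9 to 2015.1 at 8 h, a log2 change of 5.54 (adjusted p = 7.79e-26). FGF9, a ligand of FGFR3 in the skeleton, rose by 2.73 and was higher still at 4 h, at 3.48. FGF1, the acidic counterpart of FGF2, fell by 1.82. Of 3 further FGF receptors and co-receptors measured, FGFBP1, a dim carrier of FGFs, was called lower (-0.93), and FGFR4 (-0.22) and the co-receptor KL (0.75) were not called.

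Among 5 further PDGF and VEGF ligands 1 was called higher and 3 lower. PDGFC, which binds PDGFRA, fell from 1489.9 to 2405.9 at 0 h to 188 to 341 at 8 h, a log2 change of -2.98 (adjusted p = 3.32e-13), and PDGFD, which binds PDGFRB, fell by 0.58. The placental growth factor gene PGF rose by 0.45. Among 6 further receptors 1 was called higher and 2 lower. FLT4, the VEGFC receptor, rose by 1.61 (adjusted p = 1.59e-13), from 68.1 to 97.5 at 0 h to 213 to 280.4 at 8 h. NRP1, a VEGF co-receptor, fell by 1.02 and PDGFRL by 0.48. PDGFRL was the 1 gene of these 4 lists called for NFYB knockdown at 8 h (-0.42, adjusted p = 0.0110).

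Downstream, all 15 adaptor and Ras-MAP kinase genes measured were called, 9 higher and 6 lower, with a median of 0.48. All 15 lay above the 40th percentile of mean signal, where 72.2% of all probe sets were called. GAB2, a docking protein, rose by 1.71, SOS1, which loads Ras with GTP, by 1.18, and MAP2K1, the kinase of the ERK proteins, by 1.02. With NFYB knockdown at 8 h SOS2 was lower (-0.52, adjusted p = 0.00550) and HRAS higher (0.21, adjusted p = 0.0337). Of 15 heparan sulfate genes 5 were called higher and 4 lower. HS2ST1, a sulfotransferase that helps make FGF binding sites, rose by 1.34, while NDST1 fell by 0.98 and EXT2, of the chain-building polymerase, by 0.51. Of 7 feedback inhibitors 1 was called higher (SPRY2, 0.41) and 2 lower (SPRY4, -0.69, and the dim ERK phosphatase DUSP6, -1.52). SPRY2 was lower with NFYB knockdown at 8 h (-0.52, adjusted p = 0.0430).

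Of 11 genes of the transcriptional response to growth factors, 4 were called higher and 7 lower, and all 11 lay above the 40th percentile of mean signal. The immediate early genes EGR1 and FOS rose by 2.34 and 1.93, and MYC fell by 1.03. ETV4 was higher with NFYB knockdown at 8 h (0.40, adjusted p = 0.0275). Of 14 hypoxia regulators and targets other than VEGFA, 6 were called higher and 6 lower. EPAS1, the hypoxia-inducible factor 2 alpha gene, rose by 3.85 (adjusted p = 1.48e-24), EGLN1, the oxygen-sensing hydroxylase, by 2.29 and NDRG1 by 1.28, while SLC2A1, the glucose transporter that hypoxia raises, fell by 1.31. BNIP3 was higher with NFYB knockdown at 8 h (0.63, adjusted p = 0.000518). Of 7 osteoblast markers none was called higher and 2 were called lower at 8 h, SPP1 (-0.89) and COL1A1 (-0.68).

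**Figure D5:**
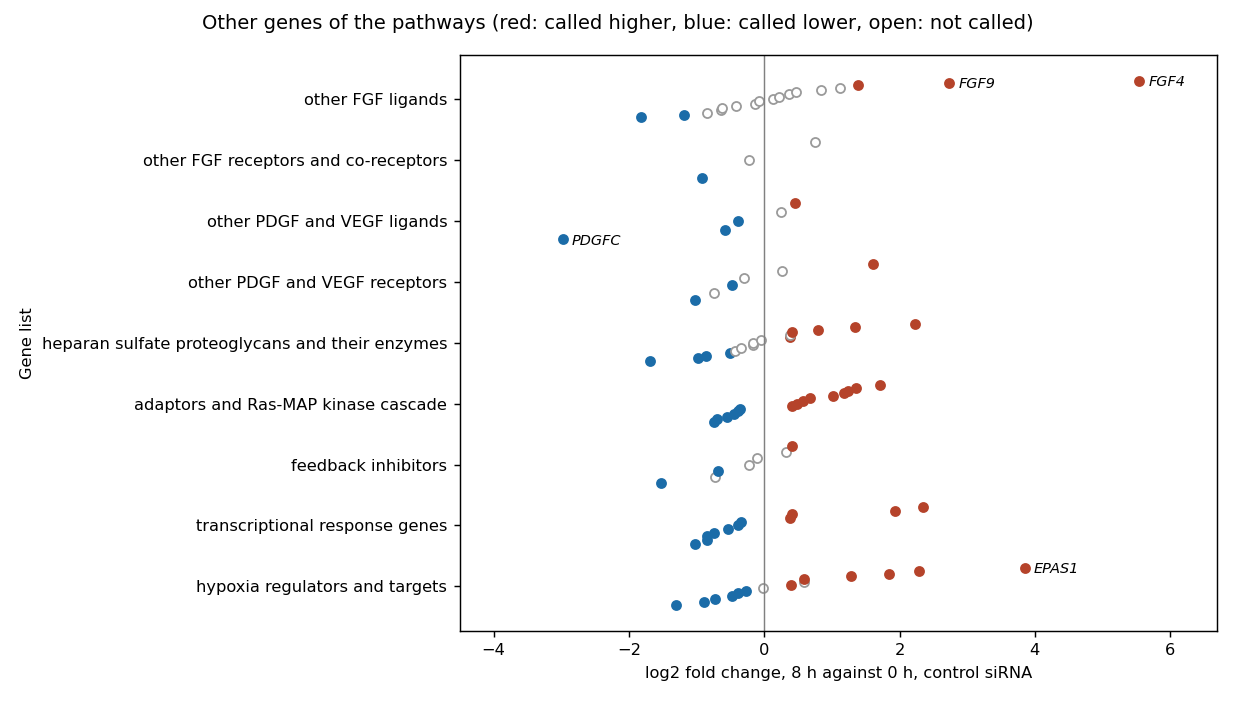
log2 fold change at 8 h in control siRNA cells (x axis) of every measured gene of 9 lists (y axis), 1 point per gene by its lead probe set, filled where called. FGF4 (5.54) and EPAS1 (3.85) lie farthest to the right and PDGFC (-2.98) farthest to the left.

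Likeness over the 12 condition means was measured by Pearson's r of the lead probe sets on the log2 scale, as a description, since the points share arrays and the rise with OHT. The closest to FGFR3 were PPP4R1 and BAZ1A (both 0.998), to VEGFC N4BP3 (0.996) and HRK (0.995), to FGFR2 DKFZP586I1420 and WDR47 (both 0.995), to PDGFA FZD5 (0.993) and SIK1 (0.992) and to VEGFA GNA13 (0.980) and SIRT1 (0.979). PDGFRB ran most like ZMYND8 (0.990) and TSC22D1 (0.989), and FGF2 most like NXPH4 (0.976). For PDGFRA, where the siRNAs differed, the closest was MEIS2 at 0.943, and for the dim FGF18 GLB1L2 at 0.799.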

How the data were processed

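The authors extracted total RNA (RNeasy, QIAcube), checked it on a Bioanalyzer, labeled it (MessageAmp Premier), hybridized 36 Affymetrix human gene expression arrays and computed MAS5 signals in Expression Console, version not given in the sources used here. The deposited values are linear signal intensities that the authors set to a common trimmed mean of 500. Probe sets were named by the platform annotation. Leaving out 62 control probe sets gave 22215 for testing, of which 19064 name 1 gene. No detection calls were used, so dimness was judged by mean signal.

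The fits used limma (version 3.58.1, under R 4.3.3) on log2 intensities to which nothing was added, with a trend on mean signal, as 6 groups of 6 arrays (arm by time), and for comparisons of siRNAs as 12 groups of 3. Tests were two-sided and adjusted by Benjamini and Hochberg over all probe sets. The fit was tested on simulated data with independent noise and no difference between the siRNAs of an arm. It therefore says nothing on how such differences affect the pooled comparisons. A scaling per array and the number of arrays limit the precision, and changes are relative to the rest of the array. Settings tried beside these were no trend, siRNA by time, each siRNA alone, siRNA as a random block, a replicate block, the methods' t-test, the mean over a gene's probe sets, 16 added to each signal, quantile normalization, only the upper 60% of probe sets, and fits without a replicate number or an array.

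All 10 members are named. From each other pathway list the 3 genes with the smallest adjusted p at 8 h in control siRNA cells and up to 2 called for knockdown at 8 h are named, and for likeness 2 genes or the first of them. SLC2A1 was named after its values were seen. The members and lists were chosen with earlier results of these data known. The comparisons of 8 h with 4 h and of the siRNAs at 0 h were added after the data were seen. Promoter windows and motif counts come from RefSeq (GRCh38.p14).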

Additional observations from a re-analysis of the deposited data

Results flagged for a closer look

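Among 60 groups of 6 arrays (lead probe set by arm and time), 6 held an array whose gap to the nearest other array, as a share of the group's range, exceeded Dixon's 95% critical value. Chance gives about 1 in 20. With the Dharmacon control siRNA at 0 h, replicate 1 was low for FGF18 (2.10 against 23.6 to 41.8, gap 0.808) and high for FGFR1 (816 against 505 to 593, gap 0.663). With the Dharmacon NFYB siRNA, FGFR1 was low at 4 h in replicate 2 (689.9 against 885 to 993, gap 0.682), and at 4 h replicate 1 was low for PDGFA (2041.4 against 2207.8 to 2282.4, gap 0.702) and for PDGFRB (41.0 against 114 to 132.75, gap 0.872). VEGFA was low in replicate 1 of the same siRNA at 0 h (503 against 609.8 to 657, gap 0.723).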

How the results depend on the processing

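Over 50 alternative settings the number of member probe sets called in the E2F1 responses ran from 20 to 25 at 4 h and 20 to 27 at 8 h in control siRNA cells, and from 20 to 25 and 21 to 25 in NFYB siRNA cells. PDGFRA was the 1 lead probe set to lose such a call. Sizes moved more when the mean over all probe sets of a gene was taken. At 8 h in control siRNA cells it was smaller than the lead value for FGFR3 (3.07), FGFR2 (1.46) and VEGFA (0.89). It was larger for FGFR1 (0.84) and PDGFRA (0.83). At 8 h in NFYB siRNA cells FGF2 read 0.55 so, and the dim FGF18 changed sign (0.23). With a replicate block the responses gave 23, 25, 25 and 24 calls and the knockdown 0 at each time. On average same-numbered replicates did not deviate together (mean r 0.0135, against -0.0068 for other numbers), so the numbers were not taken as pairs.
For NFYB knockdown at 0 h (0 calls) the count was 2 with siRNA by time as 12 groups, 4 with either NFYB siRNA alone, 5 with the Dharmacon control alone and 2 with the Sigma-Aldrich control alone, and 0 to 2 when arrays were left out. Lead probe sets called there, beside PDGFRA, were FGFR1 (-0.36, adjusted p = 0.0221) and FGFR3 (-0.38, adjusted p = 0.00504) with the Dharmacon NFYB siRNA alone. With the arms pooled, FGFR3 was also called when replicate 3 of the Ambion siRNA at 0 h was left out (-0.31, adjusted p = 0.0297). With the Dharmacon control alone they were FGFR2 (-0.32, adjusted p = 0.000320) and VEGFA (0.47, adjusted p = 0.00511). VEGFC was called with the Sigma-Aldrich control alone (-0.68, adjusted p = 9.07e-06), the Ambion siRNA alone (-0.33, adjusted p = 0.0371) and 12 groups (-0.26, adjusted p = 0.0314). At 4 h (1 call, FGF18 206987_x_at) it was 0 in the upper 60% of probe sets, without the trend, with siRNA as a random block, with the replicate block, with the Dharmacon NFYB siRNA or the Dharmacon control alone and with the methods' t-test on log2 signal, 2 with the Sigma-Aldrich control alone, and 0 to 1 when arrays were left out. At 8 h (0 calls) it was 1 with the Ambion siRNA alone, the lead probe set of FGFR2 (0.23, adjusted p = 0.0188). That siRNA alone also gave a call of FGFR2 at 4 h (0.23, adjusted p = 0.0213). The difference of responses (0 calls) gave 1 with the Dharmacon NFYB siRNA alone and 1 with the Dharmacon control alone, the latter FGFR2 (0.46, adjusted p = 0.00325). The control siRNAs (9 calls) gave 5 after quantile normalization. PDGFRA changed sign at 0 h with the Ambion siRNA alone (0.35), and between the NFYB siRNAs as the mean over its probe sets (0.087). The causes were not tested.
Over all probe sets the knockdown at 8 h called 485 higher and 547 lower, and 1356 and 1597 with 12 groups. At 0 h it called 352 and 444, and 1145 and 1358 with 12 groups, and at 4 h 328 and 323, and 1108 and 1176. Other settings lowered these counts. With siRNA as a random block the knockdown at 8 h called 317 higher and 304 lower. That setting also called fewer in both directions at 0 h and at 4 h. The study's own test on log2 signal called fewer in both directions at every time. The difference of responses called 38 and 7, 174 and 116 with 12 groups, and 62 and 24 with siRNA as a random block. Dim probe sets, and 3 arrays per siRNA and time, limit what can be seen.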
